A study of Rattus norvegicus with 6 samples.

Results

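The proteasome subunit genes of rat tendon are described here on 6 arrays, 1 array per sample. A gene was a member when a probe set named it alone, with a symbol of the Psma, Psmb, Psmc, Psmd, Psme, Psmf or Psmg series and a number, and when it was not 1 of the 3 immunoproteasome genes Psmb8, Psmb9 and Psmb10. By this rule 45 of the 22093 genes tested were members, and each was read from its probe set of highest mean signal. The samples were 3 from Sprague-Dawley rats with injured tendons and 3 from Sprague-Dawley rats with control surgery. Tendons were taken 1 week after the procedure, rats were allotted to injury or control surgery at random, and no transgene or drug is named for either group. The labels leave out which tendon was used, how it was injured, and the sex and age of the rats. They call the replicates biological. The values are log2 signals per probe set, so a difference of 1 is 2-fold.

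The proteasome is the protease that degrades proteins tagged with ubiquitin. Its core particle is a barrel of alpha subunits, which form the gated outer rings, and beta subunits, some of which carry the proteolytic sites on the inside. The regulatory particle sits on the barrel and consists of a base, with a ring of ATPases that unfolds substrates, and a lid that removes ubiquitin. Other activators can cap the core in its place, and dedicated chaperones assist assembly. In skeletal muscle, proteasome genes are known to be induced together with the ubiquitin ligases Trim63 and Fbxo32 when muscle wastes.

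Injured replicates 2 and 3 stood apart from the other 4 arrays. The median signal over all genes was 6.26, 6.78 and 6.72 on injured replicates 1, 2 and 3, against 6.20, 6.30 and 6.40 on control replicates 1, 2 and 3. The 214 genes of olfactory and vomeronasal receptors, which tendon is not known to use, had medians of -0.03, 2.14 and 2.0 relative to the mean of the controls on injured replicates 1, 2 and 3. The 95th percentile of these genes, taken as a background level, was 7.24, 10.80 and 10.48 on injured replicates 1, 2 and 3, against 6.60, 7.26 and 7.76 on control replicates 1, 2 and 3. Above it were 41, 0 and 2 of 45 members on injured replicates 1, 2 and 3, against 43, 40 and 36 on control replicates 1, 2 and 3. Only Psmc2 and Psme4 exceeded it on injured replicate 3, and no member did on injured replicate 2. Values of members below the controls on those arrays are therefore given as measured signals, with no exact fold, and the true size of such a difference is unknown.

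Genes of skeletal muscle fibres were bright on the control arrays, where Acta1 and Myh4 read 19.93 each on all 3. The 7 measured of 8 muscle markers differed from the control mean by a median of 0.25, -7.58 and -6.85 on injured replicates 1, 2 and 3. They ranged from -9.20 to -4.15 on injured replicate 2 and from -8.63 to -0.07 on injured replicate 3. Acta1 was the marker at -0.07, with a signal of 19.86. Of 9 tenocyte markers, 8 were lower on every injured array than on every control array, while Scx, the transcription factor that defines tendon cells, read 5.44 to 5.78 on injured arrays, against 5.67 to 5.75 on control arrays, below the median gene of each array. Tnmd, a membrane protein of mature tendon cells, read 7.23, 4.93 and 5.62 in injured 1, 2 and 3, against 11.13, 12.89 and 14.79 in control 1, 2 and 3. In bulk tissue, fewer cells of a type and less RNA per cell cannot be told apart.

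No proteasome gene passed the test of injured against control tendon, and for 36 of 45 the injured arrays lay on opposite sides of the controls. With limma and Benjamini-Hochberg adjustment over all genes, 0 of 45 members passed at an adjusted p of 0.05, as did 0 of all 22093 genes (0%). Adjusted p-values of the members ran from 0.322 to 0.997. At an unadjusted p under 0.05 there was 1 lower member, against 7.25% of all genes, and there were 0 higher members, against 4.39% of all genes. The median difference of the 45 members was -0.49, with 35 members below 0, against 0.15 over all genes tested, of which 38.4% lay below 0. That median joins unlike arrays: relative to the controls' mean, the members' median was 1.84, -1.47 and -1.36 on injured replicates 1, 2 and 3. Without injured replicate 1, 35 of 45 members passed, 34 of them lower, as did 60.7% of all genes.

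Members 2-fold or more above the control mean on injured replicate 1 numbered 32 of 45, against 3.32% of all genes. There, 39 of 45 members read above every control array, against 21% of all genes. On injured replicates 2 and 3 together, 38 of 45 members read below every control array, against 30.4% of all genes. Many of all genes were dim and had little room below the controls. Among genes at or above the median signal, 6341 of 11051 read below every control array on both, as did 38 of the 43 members left. Injured replicate 1 above and injured replicates 2 and 3 below every control array held for 36 of 45 members, against 9.47% of all genes. That share was 16.8% after quantile normalization and 16.7% after centring of the arrays. At the stricter limit of 2-fold above the control mean on injured replicate 1 and 2-fold below it on injured replicates 2 and 3, there were 314 genes in all (1.42%), and 23 of these were members. The 31 structural subunits of the core and regulatory particles carried the pattern, which held for 30 of 31. Psmd11 was the exception, since injured replicate 3 read 9.49 and control replicate 3 read 9.31. The arrays were not regrouped for a test of this split, and the counts describe 1 array on one side and 2 on the other.

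**Figure D1:**
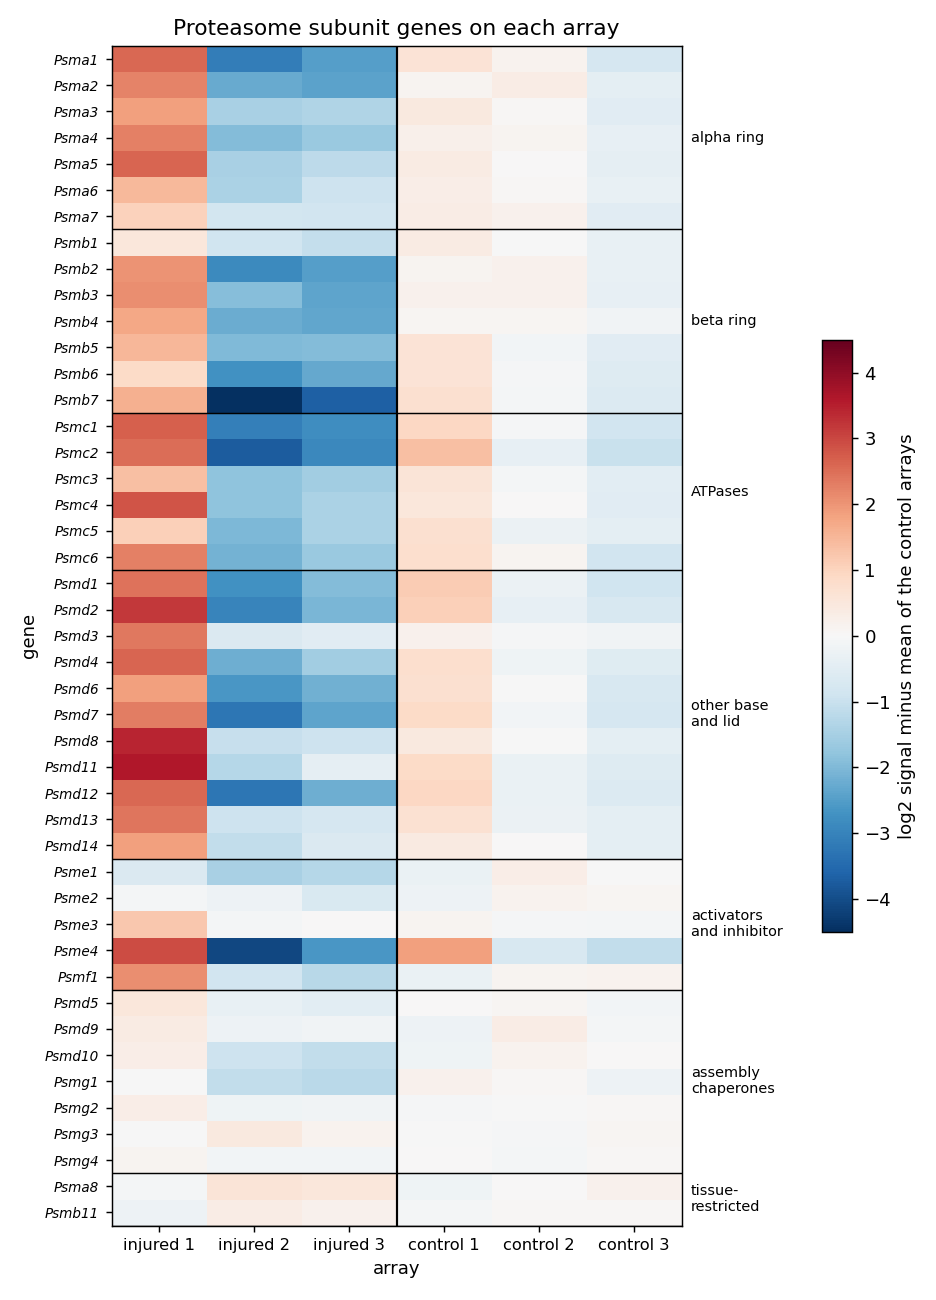
Each cell gives the log2 signal of a member minus its mean over the 3 control arrays (colour scale), with 45 genes in rows by class and the 3 injured arrays left of the 3 control arrays. Structural subunits are red on injured replicate 1, at 0.49 to 3.59, and blue on injured replicates 2 and 3, at -0.40 or lower, while assembly chaperones range over -0.02 to 0.51 on injured replicate 1 and -1.21 to 0.43 on the other injured arrays.

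The alpha ring subunits, which form the gate of the core, were all above every control array on injured replicate 1 and all below on injured replicates 2 and 3. Their medians against the control mean were 2.23, -1.47 and -1.36 on injured replicates 1, 2 and 3. Psma1 (probe set TC0100008129.rn.1) had the largest difference of the ring and read 14.30, 8.61 and 9.26 on injured replicates 1, 2 and 3, against 12.33, 11.88 and 10.97 on control replicates 1, 2 and 3. Its groups averaged 10.72 ± 3.11 in injured and 11.73 ± 0.69 in control tendon (SD, n = 3 each), a difference of -1.0 (SE 1.55, limma adjusted p = 0.662), so that the spread between injured arrays was larger than the difference. Against the control mean, Psma1 was 5.95-fold higher on injured replicate 1, and its signals on injured replicates 2 and 3 were not above the background level. Psma5 had the smallest difference, -0.02 (SE 1.12, limma adjusted p = 0.992), although it read 12.27, 8.20 and 8.48 in injured 1, 2 and 3, against 10.04, 9.70 and 9.26 in control 1, 2 and 3. There the excess on injured replicate 1, 2.60, cancelled the deficits of -1.47 and -1.19 on the other injured arrays. Psma2 was at 2.23, -2.26 and -2.41 and Psma4 at 2.26, -1.96 and -1.67 from the control mean on the injured arrays. Psma3 stood at 1.83, -1.47 and -1.36 and Psma6 at 1.47, -1.44 and -0.92. Psma7 lay nearest to the controls within the ring, at 1.03, -0.82 and -0.85.

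The beta ring, which holds the proteolytic sites, had a lower median than the alpha ring on every injured array, with 1.60, -2.23 and -2.35 on injured replicates 1, 2 and 3. No gene of either ring was above the background level on injured replicates 2 and 3, so the rings cannot be compared there. Psmb7 (TC0300003009.rn.1), the subunit with trypsin-like activity, read 15.56, 9.46 and 10.27 on injured replicates 1, 2 and 3, against 14.67, 13.87 and 13.34 on control replicates 1, 2 and 3. Relative to the controls' mean it was 3.03-fold higher on injured replicate 1, while its signals on injured replicates 2 and 3 were not above the background level. The difference was -2.20 (SE 1.64, limma adjusted p = 0.394), the largest of all members, with group means of 11.76 ± 3.31 in injured and 13.96 ± 0.67 in control tendon (SD, n = 3 each). Psmb6 (TC1000000967.rn.1), the subunit with caspase-like activity, read 11.88, 8.30 and 8.72 in injured 1, 2 and 3, against 11.64, 10.98 and 10.43 in control 1, 2 and 3, and its difference was -1.38 (SE 1.0, limma adjusted p = 0.383). Only 0.24 separated injured replicate 1 from the highest control array. Psmb5 (TC1500001674.rn.1), which carries the chymotrypsin-like site, read 11.46, 7.99 and 8.02 in injured 1, 2 and 3, against 10.58, 9.85 and 9.45 in control 1, 2 and 3, a difference of -0.80 (SE 1.01, limma adjusted p = 0.592). In all 3 catalytic genes, injured replicate 1 was the highest of the 6 arrays and injured replicates 2 and 3 were the lowest.

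The other beta subunits have no proteolytic site of their own in the core. Psmb2 was at 2.01, -2.86 and -2.49 from the control mean on the injured arrays, Psmb3 at 2.09, -1.93 and -2.39 and Psmb4 at 1.74, -2.23 and -2.35. Psmb1 had the smallest difference of the ring and read 8.38, 6.99 and 6.82 in injured 1, 2 and 3, against 8.26, 7.86 and 7.54 in control 1, 2 and 3, so that injured replicate 1 exceeded the highest control array by only 0.12. Its difference was -0.49 (SE 0.47, limma adjusted p = 0.485).

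Promoters of the 3 catalytic genes are shown because proteasome genes are known to share control by the transcription factor Nfe2l1 at antioxidant response elements. The promoter of Psmd1 is shown too, the only 1 of 14 regulatory particle promoters with a match to the core of that element. The windows shown therefore do not stand for the members at large, and control by Nfe2l1 in these samples was not tested. The windows are the 250 bases before the annotated start in RefSeq (build GRCr8), printed 5′ to 3′ on the strand of the gene. Capitals mark matches to TGACNNNGC, the core of that element, or to CCAAT, the box bound by NF-Y, on either strand.
Psmb5 (chr15:32047380-32047629, minus strand): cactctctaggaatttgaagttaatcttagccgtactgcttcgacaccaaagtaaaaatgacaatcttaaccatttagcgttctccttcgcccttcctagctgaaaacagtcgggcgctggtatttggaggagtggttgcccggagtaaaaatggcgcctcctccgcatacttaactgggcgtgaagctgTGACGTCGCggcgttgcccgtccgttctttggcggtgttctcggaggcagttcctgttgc
Psmb6 (chr10:55737638-55737887, plus strand): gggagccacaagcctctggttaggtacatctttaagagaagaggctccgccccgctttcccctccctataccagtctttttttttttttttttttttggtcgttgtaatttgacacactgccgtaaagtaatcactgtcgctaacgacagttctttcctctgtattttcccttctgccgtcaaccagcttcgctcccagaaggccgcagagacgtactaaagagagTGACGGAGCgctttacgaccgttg
Psmb7 (chr3:42827471-42827720, minus strand): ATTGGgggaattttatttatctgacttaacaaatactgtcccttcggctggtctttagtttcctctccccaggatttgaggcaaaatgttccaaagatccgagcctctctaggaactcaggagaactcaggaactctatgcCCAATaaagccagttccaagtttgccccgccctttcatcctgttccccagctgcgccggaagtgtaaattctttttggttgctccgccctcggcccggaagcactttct
Psmd1 (chr9:94157721-94157970, plus strand): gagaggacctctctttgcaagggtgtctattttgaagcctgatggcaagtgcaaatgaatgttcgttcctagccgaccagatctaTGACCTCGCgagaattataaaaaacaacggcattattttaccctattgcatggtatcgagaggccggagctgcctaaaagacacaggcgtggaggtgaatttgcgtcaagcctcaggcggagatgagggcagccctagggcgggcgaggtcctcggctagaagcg

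Psmb5 held the letters TGACGTCGC from -60 to -52 and Psmb6 the letters TGACGGAGC from -24 to -16, counted from the start of the gene, with -1 as the last base before it. Psmb7 had no match to TGACNNNGC and 2 matches to CCAAT, from -250 to -246 on the opposite strand and from -109 to -105 on its own. Psmd1 encodes a scaffold of the base. Among the 14 regulatory particle genes searched, only Psmd1 had a match to TGACNNNGC, the letters TGACCTCGC from -165 to -157. No match in these 4 windows overlapped another. Promoters were in the table for 40 of 45 members, and not for Psma7, Psmb11, Psmd6, Psmd12 and Psmd14. TGACNNNGC was present in 7 of the 40 (17.5%), against 10.1% of 33469 promoters, and CCAAT in 19 of the 40 (47.5%), against 34.0%. Among core particle genes TGACNNNGC was in 4 of 13 and CCAAT in 9 of 13, and among regulatory particle genes in 1 of 14 and 5 of 14. A match describes letters in a window and not a bound site.

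The ATPases, which form the motor ring of the base, were all more than 2-fold above the control mean on injured replicate 1 and all more than 2-fold below it, as measured, on injured replicates 2 and 3. Their medians were 2.39, -2.06 and -1.62. Psmc2 (TC0400002218.rn.1) had the largest difference, -1.38 (SE 1.75, limma adjusted p = 0.594), and read 16.36, 10.11 and 10.97 on injured replicates 1, 2 and 3, against 15.23, 13.48 and 12.87 on control replicates 1, 2 and 3. Control replicate 1 was 1.75 above the next control array there, and injured replicate 1 was higher still. Psmc4 (TC0100005062.rn.1) had the smallest difference, -0.13 (SE 1.28, limma adjusted p = 0.948), with 12.31, 7.65 and 8.04 in injured 1, 2 and 3, against 9.96, 9.49 and 8.94 in control 1, 2 and 3. It was 7.19-fold above the control mean on injured replicate 1, the most of any ATPase. Psmc1, whose tail is known to help open the gate of the core, was at 2.70, -3.09 and -2.80 from the control mean. Psmc6 was at 2.28, -2.11 and -1.68, Psmc3 at 1.36, -1.82 and -1.57 and Psmc5 at 1.06, -2.02 and -1.42.

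The remaining subunits of the base and lid had the highest median on injured replicate 1 of any class, with 2.44, -2.18 and -1.56 on injured replicates 1, 2 and 3. All 11 were more than 2-fold above the control mean on injured replicate 1, and 6 of 11 were more than 2-fold below it on both other injured arrays. Psmd11 (TC1000001210.rn.1), a lid subunit that bridges lid and core, read 13.48, 8.62 and 9.49 on injured replicates 1, 2 and 3, against 10.76, 9.59 and 9.31 on control replicates 1, 2 and 3. It was 12.1-fold above the control mean on injured replicate 1, the highest of the 45 members. Psmd8 was 10.7-fold and Psmd2, a scaffold of the base, 9.11-fold above it there. Psmd8 read 11.74, 7.28 and 7.38 in injured 1, 2 and 3, against 8.76, 8.32 and 7.90 in control 1, 2 and 3, and Psmd2 read 15.50, 9.35 and 10.26 in injured 1, 2 and 3, against 13.38, 11.95 and 11.61 in control 1, 2 and 3. As measured, Psmd8 was at -1.05 and -0.95 and Psmd2 at -2.96 and -2.05 from the control mean on injured replicates 2 and 3. Neither gene was above the background level there, so these deficits cannot be compared.

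Psmd7 (TC1900001397.rn.1), the partner of the deubiquitinase in the lid, had the largest difference of this class, -1.10 (SE 1.50, limma adjusted p = 0.62), and read 14.50, 8.96 and 9.83 in injured 1, 2 and 3, against 13.05, 12.09 and 11.45 in control 1, 2 and 3. Psmd14 (TC0300000670.rn.1), the deubiquitinase itself, had the smallest, 0.03 (SE 0.81, limma adjusted p = 0.981), and read 11.36, 8.40 and 8.87 in injured 1, 2 and 3, against 9.93, 9.52 and 9.09 in control 1, 2 and 3. On injured replicate 1 the partners were 2.30 and 1.85 above the control mean. Neither was above the background level on injured replicates 2 and 3, so their deficits there cannot be compared. Psmd4, a ubiquitin receptor, was at 2.61, -2.18 and -1.56 from the control mean, and Psmd1 at 2.44, -2.74 and -1.96. Of the lid scaffold genes, Psmd12 was at 2.57, -3.25 and -2.20, Psmd6 at 1.84, -2.63 and -2.15, Psmd13 at 2.40, -0.92 and -0.75 and Psmd3 at 2.36, -0.63 and -0.49. Psmd3, Psmd8, Psmd11, Psmd13 and Psmd14 were the 5 structural subunits whose difference over all arrays lay above 0.

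Core and regulatory particle genes could not be separated by the comparison of the groups. The median difference was -0.77 over 14 core genes and -0.61 over 17 regulatory genes, and the core median minus the regulatory median was -0.16. By array, core minus regulatory was -0.66, 0.15 and -0.55 on injured replicates 1, 2 and 3, against -0.39, 0.18 and 0.15 on control replicates 1, 2 and 3. It averaged -0.35 ± 0.44 on injured and -0.02 ± 0.32 on control arrays (SD, n = 3 each), so the groups overlapped. Only 0 and 1 of the 31 structural genes were above the background level on injured replicates 2 and 3. Core minus regulatory on those arrays therefore compares signals near that level and does not measure a difference between the particles. The arrays on which regulatory genes read highest relative to core genes were injured replicates 1 and 3 and control replicate 1. On injured replicate 1 the medians were 1.78 for core and 2.44 for regulatory genes, 3.45-fold and 5.43-fold, and 15 of 17 regulatory genes exceeded the core median. On injured replicate 3 the medians were -2.12 and -1.57, and 12 of 17 regulatory genes exceeded the core median. Injured replicate 2, at -1.96 and -2.11, went the other way, with 7 of 17. Among controls, all 14 core genes were under the regulatory median on control replicate 1, and 28 of the 31 structural genes were highest there. With ties counted, 6151 of all 22093 genes and 75 of 85 respiratory chain genes were also highest on control replicate 1 among controls.

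**Figure D2:**
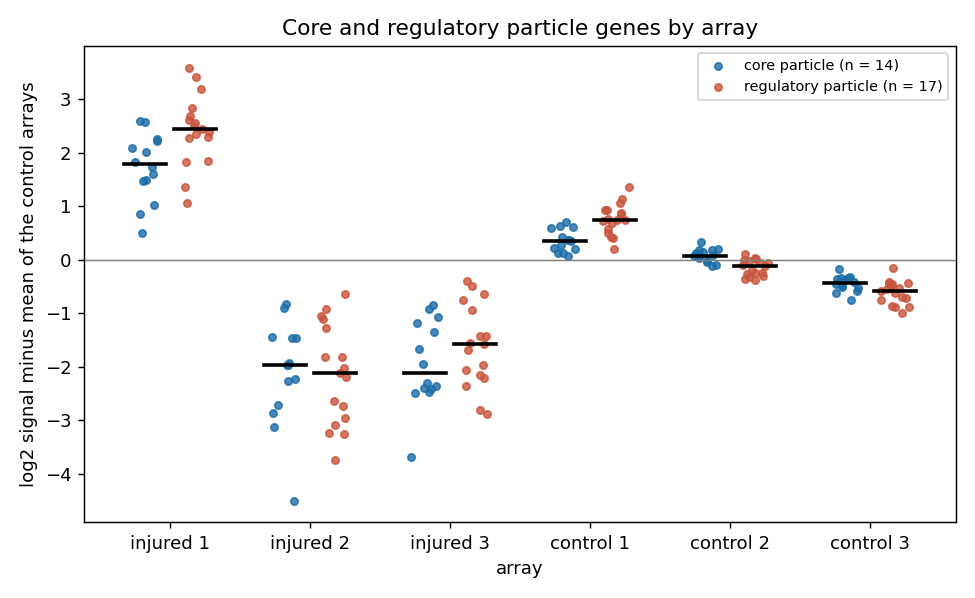
Points are genes of the core (blue) and regulatory (red) particle on each array, as log2 signal minus the mean of the control arrays, and black bars are medians. Regulatory genes lie above core genes on injured replicate 1, at medians of 2.44 and 1.78, and the particles overlap on every injured array.

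The activators that replace the regulatory particle did not share 1 course. Psme1 (TC1500000511.rn.1), a subunit of the activator that interferon-gamma induces, read 8.55, 7.75 and 7.92 on injured replicates 1, 2 and 3, against 8.93, 9.53 and 9.19 on control replicates 1, 2 and 3. It was the only member whose injured arrays all lay below all control arrays, 1 of 45 against 8% of all genes, and 0 of 45 members lay wholly above, against 7.09%. Its groups averaged 8.07 ± 0.42 in injured and 9.22 ± 0.30 in control tendon (SD, n = 3 each), and the difference was -1.14 (SE 0.28, limma adjusted p = 0.322), with an unadjusted p of 0.00746. Psme2, its partner in the same complex, read 9.31, 9.16 and 8.70 in injured 1, 2 and 3, against 9.14, 9.54 and 9.47 in control 1, 2 and 3, a difference of -0.33 (SE 0.23, limma adjusted p = 0.367), and its groups overlapped. Psme3, a nuclear activator, was at 1.21, -0.10 and 0.02 from the control mean on injured replicates 1, 2 and 3. None of Psme1, Psme2 and Psme3 was above the background level on injured replicates 2 and 3.

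Psme4 (TC1400001203.rn.1), a large nuclear activator, resembled the structural subunits and read 16.31, 9.28 and 10.78 on injured replicates 1, 2 and 3, against 15.24, 12.66 and 12.27 on control replicates 1, 2 and 3. It was 7.57-fold above the control mean on injured replicate 1 and not above the background level on injured replicate 2, and its difference was -1.27 (SE 1.96, limma adjusted p = 0.662). Psmf1 (TC0300004454.rn.1), known as an inhibitor of the core in vitro, read 9.70, 6.74 and 6.38 in injured 1, 2 and 3, against 7.33, 7.73 and 7.78 in control 1, 2 and 3. Its values on injured replicate 1, 4.25-fold above the control mean, and on the other injured arrays balanced to a difference of -0.01 (SE 0.90, limma adjusted p = 0.997).

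Assembly chaperones were dim, with control means of 5.73 to 9.16, and Psmg2, Psmg3 and Psmg4 were not above the background level on injured replicate 1. High on injured replicate 1 and low on injured replicates 2 and 3 were 4 of 7, against 9.47% of all genes. The dim Psmg2 and Psmg4 were among these. Psmg4 read 6.97, 6.74 and 6.72 in injured 1, 2 and 3, against 6.88, 6.77 and 6.90 in control 1, 2 and 3. Medians of the 7 chaperones against the control mean were 0.29, -0.21 and -0.17 on injured replicates 1, 2 and 3. On injured replicate 1, 0 of 7 were 2-fold above the control mean. Psmg1 (TC1100001377.rn.1), a chaperone of the alpha ring, had the largest difference, -0.77 (SE 0.36, limma adjusted p = 0.322), and read 9.15, 8.07 and 7.95 in injured 1, 2 and 3, against 9.34, 9.20 and 8.94 in control 1, 2 and 3. Its injured replicate 1 lay within the control range, while the other injured arrays lay below it. Psmg2, with which it forms a dimer, was at 0.29, -0.21 and -0.17, and the other core chaperones Psmg3 and Psmg4 were at -0.02, 0.43 and 0.15 and at 0.12, -0.11 and -0.13. Chaperones of the base were Psmd5 at 0.51, -0.34 and -0.46, Psmd10 at 0.29, -0.93 and -1.09 and Psmd9, with the smallest difference, 0.01 (SE 0.25, limma adjusted p = 0.987), and 7.53, 6.93 and 6.99 in injured 1, 2 and 3, against 6.90, 7.47 and 7.06 in control 1, 2 and 3. The core subunits known from single tissues were dim too, and Psma8 was above the background level on none of the 6 arrays. Psma8 (TC1800000070.rn.1), the testis form of an alpha subunit, read 5.13, 5.80 and 5.71 in injured 1, 2 and 3, against 5.02, 5.23 and 5.40 in control 1, 2 and 3, a difference of 0.33 (SE 0.24, limma adjusted p = 0.379). Psmb11 (TC1500000470.rn.1), the beta subunit of thymic epithelium, read 7.27, 7.82 and 7.68 in injured 1, 2 and 3, against 7.38, 7.54 and 7.53 in control 1, 2 and 3, a difference of 0.11 (SE 0.19, limma adjusted p = 0.712). Both were lowest on injured replicate 1 or control replicate 1 and highest on injured replicate 2.

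The immunoproteasome genes, which the rule left out, encode interferon-induced replacements of the catalytic subunits. None of the 3 was above the background level on any injured array, and Psmb9 was not on any of the 6 arrays, so a change could have been missed. Psmb8 (TC2000000132.rn.1), the replacement for Psmb5, read 6.91, 6.23 and 6.14 on injured replicates 1, 2 and 3, against 7.10, 8.23 and 7.55 on control replicates 1, 2 and 3, with no overlap. Its difference was -1.20 (SE 0.37, limma adjusted p = 0.322), and a second probe set for it read 5.68, 5.60 and 5.67 in injured tendon, against 5.77, 6.26 and 6.07 in control tendon. Psmb10 (TC1900001363.rn.1), the replacement for Psmb7, read 6.95, 6.81 and 6.60 in injured 1, 2 and 3, against 6.75, 7.31 and 7.18 in control 1, 2 and 3, a difference of -0.29 (SE 0.21, limma adjusted p = 0.378). Psmb9 (TC2000001061.rn.1), the replacement for Psmb6, read 6.37, 6.04 and 6.33 in injured 1, 2 and 3, against 6.23, 6.44 and 6.32 in control 1, 2 and 3, a difference of -0.08 (SE 0.16, limma adjusted p = 0.733).

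Of 34 other genes of the ubiquitin and proteasome pathway, these 3 included, 28 were measured, and 0 of 28 passed the test in either direction with limma. At an unadjusted p under 0.05, 2 of 28 were lower, Psmb8 and Ube3c, against 7.25% of all genes, and 0 were higher, against 4.39%. Their median difference was -0.48, and their medians against the control mean were 0.87, -1.40 and -1.43 on injured replicates 1, 2 and 3. Above every control array on injured replicate 1 and below every one on injured replicates 2 and 3 were 17 of 28, against 9.47% of all genes. They included the unfoldase Vcp at 2.29, -2.31 and -1.55 and its adaptors Nploc4 at 3.52, -1.91 and -1.36 and Ufd1 at 2.12, -2.48 and -2.60, and Nfe2l1, the transcription factor of proteasome genes, at 1.49, -1.39 and -1.03. Usp14, a deubiquitinase of the regulatory particle, was at 2.13, -1.28 and -1.05. Pomp (TSUnmapped00000072.rn.1), the maturation factor of the core, read 12.25, 8.94 and 9.41 in injured 1, 2 and 3, against 11.80, 11.74 and 11.31 in control 1, 2 and 3, a difference of -1.42 (SE 0.89, limma adjusted p = 0.341). Ecpas (TC0500002839.rn.1), a scaffold that binds proteasomes, had the largest difference below 0, -2.14 (SE 1.70, limma adjusted p = 0.414), and read 14.55, 8.59 and 9.44 in injured 1, 2 and 3, against 14.56, 12.37 and 12.08 in control 1, 2 and 3. Its injured replicate 1 lay within the control range. The ubiquitin-activating enzymes Uba1, at 0.18, -2.29 and -1.69, and Uba6, at -0.05, -1.24 and -1.18, were near the controls on injured replicate 1.

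Trim63 (TC0500001649.rn.1), a ubiquitin ligase of muscle, read 18.22, 8.92 and 8.55 on injured replicates 1, 2 and 3, against 12.88, 8.75 and 8.75 on control replicates 1, 2 and 3. Against the control mean it was 273-fold higher on injured replicate 1, and the difference of 1.77 (SE 2.90, limma adjusted p = 0.68) was smaller than the spread of the injured arrays. Fbxo32, the other muscle ligase of the list, is named after its values were seen and read 17.87, 8.64 and 8.44 in injured 1, 2 and 3, against 13.37, 9.62 and 10.26 in control 1, 2 and 3. Both ligases were highest on injured replicate 1 and next highest on control replicate 1. That order of these arrays also held in 28 of the 31 structural proteasome genes. Of all genes, 21% read above every control array on injured replicate 1, and 6151 of 22093 were highest on control replicate 1 among controls. The share with both was not counted, and a link between the ligases and the proteasome genes was not tested. Of the 7 muscle markers, 5 were highest among controls on control replicate 1, with Acta1 and Myh4 tied at the ceiling of the scale, and the median on injured replicate 1 was 0.25 above the control mean. Epidermal markers were highest on injured replicate 1 in 3 of 3, with Krt14, Krt1 and Krt10 at 8.52, 14.04 and 10.38 on injured replicate 1, against 5.53 to 6.01 on control arrays for Krt10 and Krt14 and 4.97 to 5.31 for Krt1. Summed over each list, epidermal signal was 7.77 to 14.18 on injured and 7.03 to 7.37 on control arrays, and muscle signal 16.45 to 22.15 and 21.78 to 22.20, on the log2 scale.

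Some markers of other cells had the same order of arrays as the structural subunits, an order that 9.47% of all genes had. Of 5 endothelial markers, 2 did, Pecam1 at 1.77, -4.26 and -4.45 and Kdr at 1.85, -2.64 and -2.63 from the control mean on injured replicates 1, 2 and 3, and the summed list was 9.85 to 14.58 on injured and 12.46 to 14.06 on control arrays. Of 4 adipocyte markers, 1 did, Fabp4 at 1.57, -7.52 and -7.44. The others, Adipoq, Plin1 and Lep, lay below the control mean on injured replicate 1 too, at -3.41, -1.36 and -1.56. The summed adipocyte list was 9.27 to 17.66 on injured and 15.42 to 18.37 on control arrays. Its highest injured value came mostly from Fabp4, which read 17.63 on injured replicate 1. These markers are named after their values were seen. Neutrophil markers went another way, with 0 of 5 in that order and medians of 0.02, 2.92 and 1.70, and summed signal of 7.96 to 11.67 on injured and 7.81 to 8.05 on control arrays. Of 6 macrophage and 5 T cell markers, 0 had that order, with medians of -0.62, -0.11 and -0.96 and of -0.02, 0.55 and 0.58. No marker of these lists was above the background level on injured replicates 2 and 3, where the receptor genes had medians of 2.14 and 2.0. Higher neutrophil or T cell values there therefore cannot be told from raised background. The part of any of these cell types in the proteasome values was not tested.

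**Figure D3:**
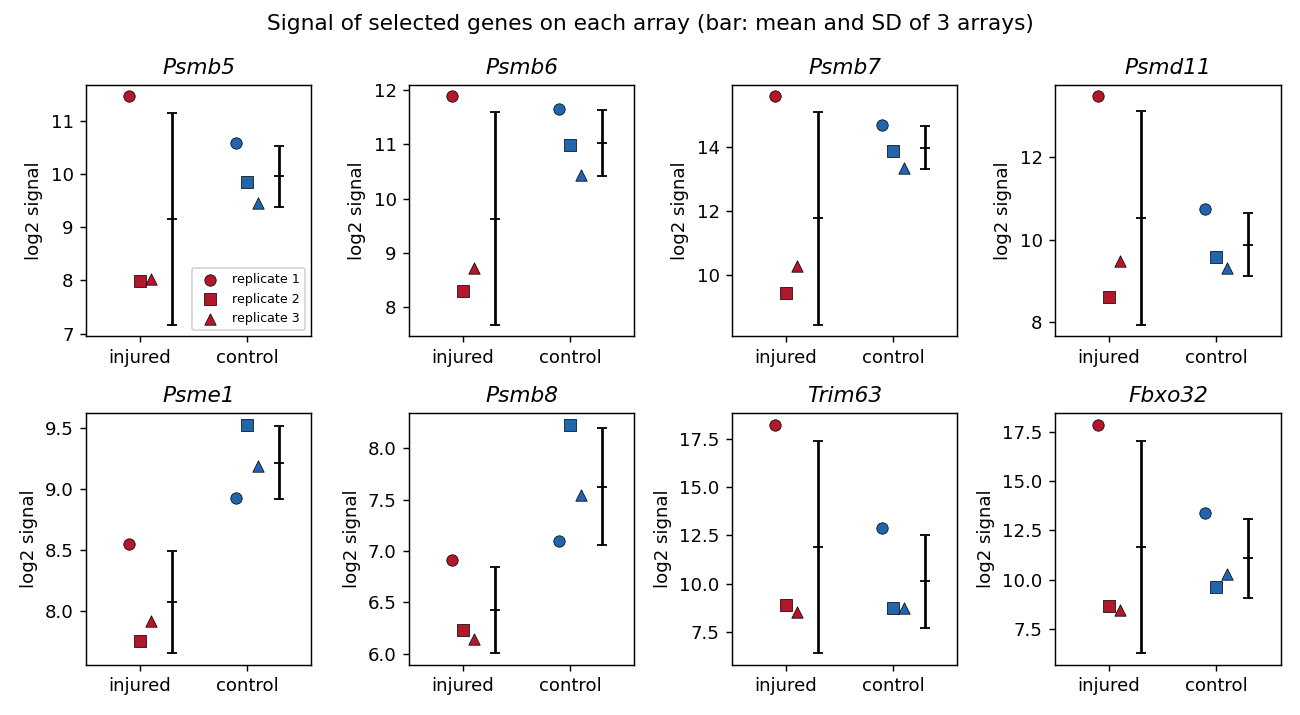
Points are log2 signals on the injured arrays (red, left) and control arrays (blue, right), with symbols for replicates 1 to 3 and bars for the mean and SD of 3 arrays. Psmb5, Psmb6, Psmb7, Psmd11, Trim63 and Fbxo32 are highest on injured replicate 1, while Psme1 and Psmb8 are lower on all 3 injured arrays than on any control array.

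Ribosomal proteins and the respiratory chain were the other large complexes examined. The filter for copies also dropped large-subunit symbols ending in l and a number, such as Rpl10, and the name pattern admits kinases named Rps6k. The 48 genes left, called ribosomal here, thus lack most large-subunit genes. They had medians of 0.15, -1.26 and -0.94 relative to the controls' mean on the injured arrays, and 0 of 48 were 2-fold above it on injured replicate 1. Of these, 18 of 48 were above every control array there, against 21% of all genes, and 12 of 48 were also below every control array on injured replicates 2 and 3, against 9.47%. Unfiltered, 318 genes had medians of 0.05, -0.72 and -0.59, with 51 of 318 in that order of arrays. The 85 respiratory chain genes stood at -0.29, -1.43 and -1.26, with 0 of 85 at 2-fold above and 1 of 85 in that order of arrays. The 11 reference genes stood at -0.29, -2.63 and -2.41, with 1 of 11 at 2-fold above and 3 of 11 in that order. Hprt1 was 1 of these, at 1.69, -3.24 and -3.06. On injured replicates 2 and 3 the structural proteasome genes, at -2.02 and -1.68, lay below the medians of ribosomal and respiratory genes and above that of the reference genes. The median signal of each of these sets was under the background level on both arrays, so the deficits of the sets cannot be compared there. Control arrays also differed, with respiratory genes at 0.48, -0.09 and -0.35 and structural proteasome genes at 0.60, -0.03 and -0.51 on control replicates 1, 2 and 3.

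**Figure D4:**
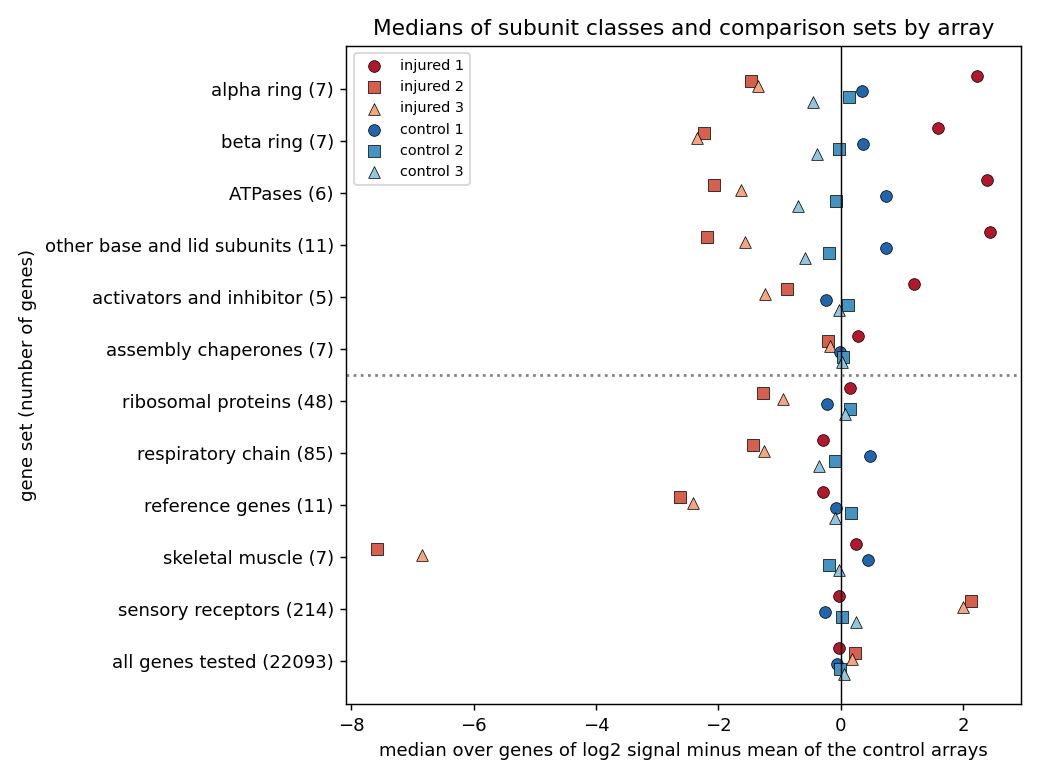
Each symbol is the median over a gene set of log2 signal minus the mean of the control arrays on 1 array, with injured arrays in red and control arrays in blue and classes of proteasome genes above the dotted line. The structural classes reach 1.60 to 2.44 on injured replicate 1, where ribosomal, respiratory and reference genes are at 0.15, -0.29 and -0.29. The ribosomal set lacks most large-subunit genes. Muscle genes, with control means of 17.80 to 19.93 on a scale that ends at 19.93, had little room above the controls.

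The deficits on injured replicates 2 and 3, as measured, tended to be larger where the signal on the control arrays was higher. Across the 45 members, the difference from the control mean correlated with the control mean at r = -0.91 on injured replicate 2 and r = -0.87 on injured replicate 3, and at r = 0.59 on injured replicate 1. Over the 31 core and regulatory genes, r was -0.86, -0.79 and 0.165 on injured replicates 2, 3 and 1. These describe genes that share arrays and a scale with a floor, and have no p. The control mean is also subtracted in the difference it is set against, which by itself can pull r below 0. On injured replicate 1, 31 of 31 structural genes exceeded the background level. The part of the raised receptor signal in the deficits on injured replicates 2 and 3 was not tested.

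**Figure D5:**
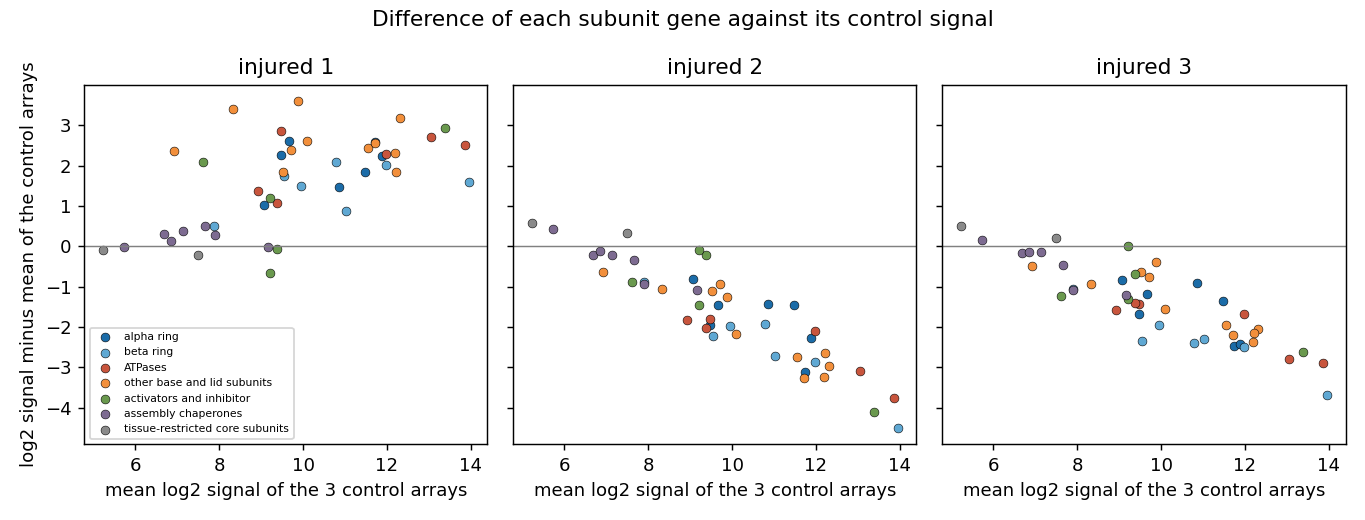
For each injured array, points give the log2 signal of a member minus its control mean against that control mean, coloured by class. Points slope down on injured replicates 2 and 3 (r = -0.91 and -0.87), while on injured replicate 1 the structural classes lie above 0 at control means from 6.91 to 13.96.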

How the data were processed

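RNA from tendons of 6 rats was hybridised to Affymetrix arrays, 1 per sample, 3 injured and 3 control. The array type is rat in the titles but mouse in the protocol. For 68842 probe sets the authors deposited log2 signals. The submitters' processing notes name Affymetrix Expression Console; for its version, background correction and normalization, the sources used here state nothing. Values on the log2 scale were used as deposited. Symbols came from the platform annotation, and Entrez identifiers tied 22077 of the 23446 singly named probe sets to RefSeq rat genes, which changed 1 symbol. Each of 22093 genes was represented by its brightest probe set. Injured was compared with control in limma 3.58.1 under R 4.3.3 (lmFit and eBayes, two-sided, Benjamini-Hochberg over all genes, threshold 0.05), as tested on simulated data. Differences are injured minus control, with the standard error (SE) of limma and the standard deviation (SD) over 3 arrays. Arrays have no read depth, and their number limits the precision.

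Members and lists were chosen with earlier results of these data known. The core particle was Psma1 to Psma7 and Psmb1 to Psmb7, and the regulatory particle Psmc1 to Psmc6 with the 11 structural Psmd genes; Psmd5, Psmd9 and Psmd10 counted as chaperones. Named by rule with their full values were the catalytic subunits, the largest and smallest absolute difference of each class, members whose groups did not overlap, the immunoproteasome genes and the 3 largest differences of the pathway list; other members were given by their values against the control mean, or in full where a count turned on them, chosen after their values were seen. Ribosomal and respiratory genes with a suffix of copies or pseudogenes were left out, a choice made after the data were seen. The suffix rule, l and a number or ps, also took out large-subunit ribosomal symbols such as Rpl10. Alternatives were other normalizations, a filter on genes under the median signal, other probe set summaries and variance models, array weights, the replicate number as a block, and omission of arrays. No protein sequences were used here, so identities between subunits were not computed.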

Additional observations from a re-analysis of the deposited data

How the results depend on the processing

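The call of 0 members held in limma under quantile normalization, centring on array medians, omission of dim genes, averaging of probe sets per gene, eBayes with trend and robust, the replicate block, injured replicate 1 alone, and omission of any array except injured replicate 1. Without injured replicate 1, 35 of 45 members passed, 34 of them lower, as did 60.7% of all genes; over the 6 omissions the count ran from 0 to 35. With array quality weights, 42 members passed and 81.9% of all genes; those weights were 0.0531 on injured replicate 1 and 29.0 on injured replicate 3, and their estimation stopped before convergence. Over the omissions of 1 array the core median ran from -2.06 to -0.11, the regulatory median from -1.87 to 0.30, core minus regulatory from -0.45 to 0.08, and structural members below 0 (26 of 31 with all arrays) from 14 to 31. Array quality weights gave a core minus regulatory difference of -0.56. Injured replicate 1 alone gave medians of 1.78 for core and 2.44 for regulatory genes, -0.66 between them and 0 structural members below 0; this single array is assumed to vary like the controls. Core minus regulatory was -0.06 after quantile normalization and -0.08 with subunits taken by symbol alone.

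Quantile normalization moved the median of all genes from 0.15 to -0.28 and centring moved it to -0.38, and structural members high on injured replicate 1 and low on injured replicates 2 and 3 were 31 of 31 after centring (16.7% of all genes), 30 of 31 after quantile normalization (16.8%) or without dim genes (18%), against 9.47% of all genes as deposited, and 30 to 31 without 1 control array, alternatives chosen after the data were seen. Ribosomal and respiratory sets before the suffix filter had medians of -0.42 and -0.91, against -0.72 and -0.98 after it. That filter also removed most large-subunit ribosomal genes. Signs of small differences turned under quantile normalization (0.12 for Psma5, -0.16 for Psma8, -0.11 for Psmb11 and -0.43 for Psmd9), centring (-0.20 for Psma8, -0.42 for Psmb11, -0.50 for Psmd14 and -0.52 for Psmd9) and array weights (-0.63 for Psmd14, -0.32 for Psmd9 and -0.80 for Trim63). Injured replicate 1 alone turned the sign to 1.55 for Ecpas, 0.63 for Pomp, 2.57 for Psma1, 2.60 for Psma5, -0.087 for Psma8, 0.49 for Psmb1, -0.21 for Psmb11, 1.50 for Psmb5, 0.86 for Psmb6, 1.60 for Psmb7, 0.04 for Psmb9, 2.50 for Psmc2, 2.85 for Psmc4, 2.30 for Psmd7, 2.92 for Psme4 and 2.09 for Psmf1. Omission of 1 array turned signs within ranges of -2.79 to 0.053 for Psma1, -1.33 to 0.71 for Psma5, -0.0083 to 0.27 for Psmb11, -0.14 to 0.02 for Psmb9, -1.62 to 0.71 for Psmc4, -0.88 to 0.60 for Psmd14, -0.18 to 0.17 for Psmd9, -3.36 to 0.15 for Psme4, -1.05 to 0.61 for Psmf1 and -1.39 to 3.44 for Trim63. The cause of these turns was not tested, beyond the opposite sides of the controls on which the injured arrays lay.

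Replicate numbers are shared between groups, but same-numbered arrays deviated together at r = 0.48, -0.04 and 0.59 for numbers 1, 2 and 3, so the numbers were not taken to pair the rats. With the replicate block, 0 members passed, 2 members and 4565 genes had an unadjusted p under 0.05, against 1 and 2572 without it. Only 3 arrays per group and the raised receptor signal on injured replicates 2 and 3 limit what can be seen.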

Other observations

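Probe sets of 15 genes that the platform annotation names as copies or pseudogenes of proteasome subunits gave a measure beside the members. Their median difference was 0.29, with medians of 0.22, 0.19 and 0.06 from the control mean on injured replicates 1, 2 and 3. Psmb3-ps7 read 9.60, 7.57 and 7.63 on injured arrays, against 8.50, 8.26 and 7.77 on control arrays, and was the only copy with the order of the structural subunits. Psma6-ps4 was at 1.32, -0.34 and -0.36 from its control mean. Transcripts of a subunit gene may bind probes of a near-identical copy, so values of Psmb3, Psma6 and Psme3 and of their copies are uncertain where the sequences are shared. Psme3-ps3 read 9.97 on injured replicate 1, against 8.35 to 8.58 on control arrays.

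A second probe set existed for 3 members. The probe set not used gave a difference of -0.46 for Psme2, 0.45 for Psme3 and -0.11 for Psmd10, against -0.33, 0.37 and -0.58 for the probe set used, each with the same sign.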
